A study of Mus musculus with 23 samples.

Results

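The genes examined were 8 genes of cholesterol synthesis, Srebf2, Hmgcs1, Idi1, Fdft1, Sqle, Lss, Cyp51 and Msmo1, taken by symbol from the gene count tables of mouse quadriceps and epididymal fat. All 8 were among the 12831 genes of the quadriceps table and the 16962 genes of the fat table. The genes were selected on differences between the groups seen earlier in these same libraries, so their differences between groups are given as a description, and the false discovery rates (FDR) beside them come from the fit over every gene of the table. Quadriceps RNA came from 3 mice without tumor (no tumor), 4 with KPC tumors and 4 with KPC IL6KO tumors, epididymal fat RNA from 4 mice per group, and each of the 23 libraries was from a single mouse. All hosts were male C57BL/6J mice aged 8 weeks at the start whose own Il6 gene was not edited. No tumor mice had sham surgery. KPC mice received, in the pancreas, cells of 1 KPC pancreatic cancer clone with a control guide RNA. KPC IL6KO mice received cells of 1 CRISPR clone in which Il6 was disrupted. The study also reported larger tumors in KPC than in KPC IL6KO mice. An effect of Il6 loss, a feature of either clone and tumor size therefore cannot be told apart. RNA of the 2 tissues was isolated and sequenced separately, and the labels, which number the muscle and fat samples apart, do not say whether the same mice gave both.

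Cells make cholesterol from acetyl-CoA by the mevalonate pathway, in which isoprenoid units are joined to squalene, squalene is closed to lanosterol, and lanosterol is trimmed to cholesterol in a chain of oxidations and reductions. When sterols in the endoplasmic reticulum are low, the precursor of the transcription factor SREBP2 is escorted to the Golgi by SCAP, cut there by proteases, and released to switch on the genes of the pathway. INSIG proteins hold SCAP back when sterols are plentiful, so these genes tend to rise and fall together in many cells. Fat stores much of the body's free cholesterol, and muscle also uses the pathway for the isoprenoid tails of ubiquinone, dolichol and prenylated proteins.

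Values are CPM, the count divided by the library size after TMM scaling. Fold changes are log2 FC with the standard error (SE) from edgeR's quasi-likelihood test, and genes with an FDR (Benjamini-Hochberg) no higher than 0.05 and a change of 1.5-fold or more either way were called. Library totals were 19259763 to 74907810 counts in quadriceps and 26306377 to 56308545 in fat, where 3 counts, the level not distinguished from 0, equal 0.0462 to 0.154 CPM and 0.0474 to 0.123 CPM. In quadriceps the 5 muscle fiber markers summed to 107936 to 181724 CPM. The fat libraries were not uniform. All 5 epididymis markers were in the table, and Gpx5, an epididymal secreted peroxidase, was high in 7 libraries (no tumor 5 and 7, all 4 KPC, KPC IL6KO 6), from 21347 to 54957 CPM. The remaining 5 (no tumor 6 and 8, KPC IL6KO 5, 7 and 8) had 4.69 to 85.8 CPM. The 5 adipocyte markers summed to 916 to 17184 CPM over the fat libraries. Testis germ cell markers (3 genes) summed to 0.589 to 1067 CPM and Leydig cell markers (4 genes) to 7.49 to 141 CPM. The part of these cells in the levels of the 8 genes was not tested. Il6 had no row in the quadriceps table, and in fat it was at 0 to 0.0632 CPM in no tumor, 2.02 to 5.30 in KPC, and 4.66, 0.0343, 0.267 and 4.77 in KPC IL6KO, which checks no label because the edit was in the tumor cells. In bulk tissue, fewer cells of a type and less RNA per cell cannot be told apart.

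In quadriceps of KPC mice the 8 genes did not all change in the same direction. Against no tumor, 5 of the 8 genes fell (Srebf2, Hmgcs1, Idi1, Cyp51 and Msmo1), 2 rose (Fdft1 and Lss) and Sqle was not called. Fdft1, which makes squalene, was 4.36-fold higher, whereas the 5 genes that fell were 1.66-fold (Msmo1) to 3.00-fold (Idi1) lower. These counts stand beside a table in which 26.7% of all genes were called higher and 29.0% lower in KPC, so nothing is read from the number of genes called. The CPM of 7 of the 8 genes did not overlap between the 2 groups, as was so for 65.3% of all genes.

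**Figure D1:**
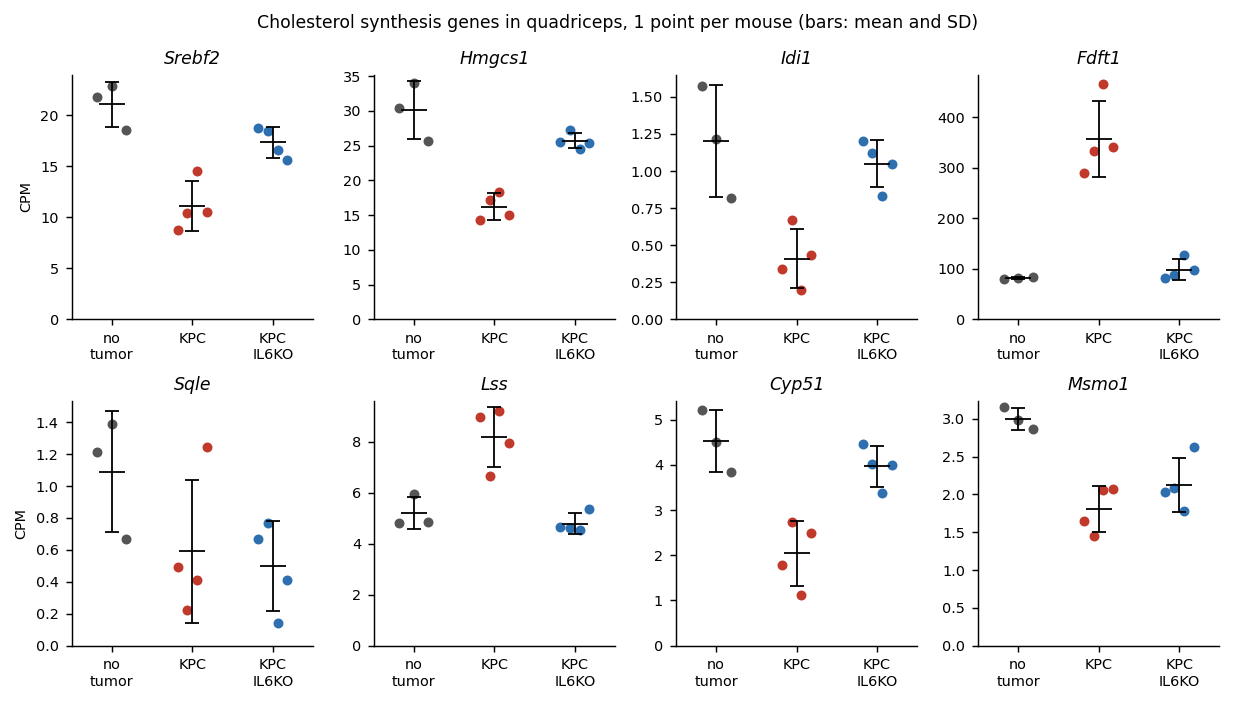
CPM of the 8 genes in each quadriceps library, 1 panel per gene with its own axis from 0, with no tumor in grey, KPC in red and KPC IL6KO in blue, and bars for the group mean and SD. Fdft1 stood at 290 to 466 CPM in KPC against 79.3 to 84.7 in no tumor, while Srebf2, Hmgcs1, Idi1 and Cyp51 were lower in every KPC library than in any other library.

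Srebf2 encodes SREBP2, the transcription factor that drives the pathway. It was at 21.7, 22.8 and 18.6 CPM in the 3 no tumor muscles, at 8.76, 10.4, 14.5 and 10.5 in KPC, and at 18.8, 18.5, 16.6 and 15.6 in KPC IL6KO. Every KPC muscle lay below every muscle of both other groups. The log2 FC of KPC against no tumor was -0.93 (SE 0.16, FDR = 0.000331), a level 1.91-fold lower.

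Hmgcs1 makes HMG-CoA from acetoacetyl-CoA and acetyl-CoA. Its level was 30.5, 34.0 and 25.7 CPM in no tumor, 14.3, 17.2, 18.4 and 15 in KPC, and 25.6, 27.2, 24.6 and 25.4 in KPC IL6KO. The KPC muscles again stood below all others, with a log2 FC against no tumor of -0.89 (SE 0.12, FDR = 6.4e-05). Idi1, which interconverts the isoprene units IPP and DMAPP, was scarce, at 1.58, 1.21 and 0.820 CPM in no tumor, 0.339, 0.668, 0.196 and 0.433 in KPC, and 1.20, 1.12, 0.834 and 1.05 in KPC IL6KO. It had the largest fall of the 8 genes in KPC, with a log2 FC of -1.58 (SE 0.37, FDR = 0.0024).

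Fdft1, squalene synthase, is the first enzyme committed to sterols. Its level was 79.3, 82.1 and 84.7 CPM in no tumor, 290, 334, 466 and 341 in KPC, and 81.1, 88.1, 127 and 98.2 in KPC IL6KO. No KPC value came near those of the other groups, and the log2 FC against no tumor was 2.12 (SE 0.19, FDR = 4.2e-06), a 4.36-fold higher level. Fdft1 lies at chr14:63145150-63179578 on the minus strand (GRCm38), and its last 774 bases overlap the cathepsin gene Ctsb on the plus strand. The strand setting of the counting is not given in the sources used here, so reads in those bases cannot be assigned to 1 of the 2 genes. Ctsb was at 336 ± 7.13 CPM (SD, n = 4) in KPC muscle against 405 ± 28.2 (n = 3) in no tumor, with a log2 FC of -0.27 (SE 0.09). The part of the shared bases in the counts of Fdft1 was not tested.

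Sqle, squalene epoxidase, is a rate-limiting step after squalene, and here it was near 1 CPM, with 1.21, 1.39 and 0.666 in no tumor, 0.493, 0.223, 0.409 and 1.24 in KPC, and 0.670, 0.771, 0.142 and 0.412 in KPC IL6KO. The groups overlapped, and the log2 FC of KPC against no tumor was -0.92 with an SE of 0.59 (FDR = 0.181). Without KPC replicate 4, its highest KPC library, Sqle was called, with a log2 FC of -1.57 (FDR = 0.0214). Lss, lanosterol synthase, closes the ring system and was the other gene to rise, from 4.83, 5.94 and 4.87 CPM in no tumor to 8.98, 6.66, 9.21 and 7.94 in KPC, with 4.65, 4.61, 4.53 and 5.38 in KPC IL6KO. The lowest KPC muscle was above the highest of the other groups, and the log2 FC against no tumor was 0.65 (SE 0.15, FDR = 0.00288), a 1.57-fold rise. An antisense transcript, 4930483K19Rik, overlaps 11268 bases of the Lss gene and has no row in either table, so reads of the pair cannot be told apart.

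Cyp51 takes the first methyl group off lanosterol, and Msmo1 the next ones. Cyp51 was at 5.21, 4.51 and 3.84 CPM in no tumor, 1.79, 2.74, 1.13 and 2.5 in KPC, and 4.47, 4.01, 3.38 and 4.00 in KPC IL6KO. Its log2 FC in KPC was -1.16 (SE 0.26, FDR = 0.0022). Of its span, 166 bases overlap Akap9 on the other strand. Akap9 had a log2 FC of 0.51 (SE 0.13, FDR = 0.00522) in KPC against no tumor and was not called only because it was under the 1.5-fold limit. Msmo1 was at 3.15, 2.98 and 2.87 CPM in no tumor, 1.65, 1.45, 2.06 and 2.07 in KPC, and 2.03, 2.09, 1.78 and 2.62 in KPC IL6KO. Here both tumor groups stood below no tumor and overlapped each other, and the log2 FC of KPC was -0.73 (SE 0.20, FDR = 0.00582).

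In KPC IL6KO muscle 0 of the 8 genes were called against no tumor, and 0 of all 12831 genes (a background of 0%), by edgeR's quasi-likelihood test. At an unadjusted p under 0.05 there were 1 of the 8 genes, Msmo1, and 887 of all genes. The likelihood ratio test of edgeR called 0 of the 8 and 95 of all genes, and DESeq2 0 of the 8 and 96 of all genes. Msmo1 had a log2 FC of -0.50 (SE 0.20, FDR = 0.594) and was the 1 gene without overlap between the groups, against 15.5% of all genes. Fdft1 was at 98.6 ± 20.3 CPM (SD, n = 4) against 82.0 ± 2.71 (n = 3), a log2 FC of 0.27 (SE 0.18, FDR = 0.926), and Srebf2 had a log2 FC of -0.28 (SE 0.16, FDR = 0.876). The 8 log2 FC had a median of -0.23, beside 0.003 over all genes.

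The direct comparison of the 2 tumors in muscle gave 6 calls. Fdft1 was 3.63-fold higher in KPC than in KPC IL6KO (log2 FC 1.86, SE 0.17, FDR = 4.2e-06) and Lss 1.71-fold higher (0.77, SE 0.14). Idi1, Cyp51, Hmgcs1 and Srebf2 were lower, with log2 FC of -1.36, -0.96, -0.66 and -0.65 and SE of 0.34, 0.25, 0.11 and 0.15. Msmo1 (-0.24, SE 0.18) and Sqle (0.25, SE 0.56) were not called. Of all genes, 26.4% were called higher and 27.3% lower in this comparison, and 6 of the 8 genes did not overlap, as did 62% of all genes. The call of Srebf2 was lost without KPC replicate 1, with a log2 FC of -0.55, which is under the 1.5-fold limit.

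The levels of the 8 genes differed widely within muscle. Exon length was the union of the exons of all annotated transcripts, from 3.505 kb (Idi1) to 10.787 kb (Lss). It can exceed the length of the main transcript, so the order of genes per kilobase depends on it. Per kilobase of exon in no tumor muscle, Fdft1 was highest, at 19.4 ± 0.642 CPM per kb (SD, n = 3), followed by Hmgcs1 at 6.55 ± 0.907, Srebf2 at 2.93 ± 0.306 and Cyp51 at 1.02 ± 0.155, and none of these overlapped its neighbour in the order. Msmo1 (0.488), Lss (0.483), Idi1 (0.343) and Sqle (0.197) followed, and neighbours among these overlapped. In KPC the gap between the first gene and the next widened, with Fdft1 at 84.6 ± 17.8 CPM per kb (n = 4) and Hmgcs1 at 3.53 ± 0.415.

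The promoters of Hmgcs1, a gene that fell, and Lss, one that rose, are shown because SREBP2 is known to act at such sequences together with the factors NF-Y, which binds the CCAAT box, and Sp1. Both sequences are the 250 bases before the RefSeq start on GRCm38.p6, 5′ to 3′ on the gene's strand, and both genes are on the plus strand. Capitals mark the sterol regulatory element searched as TCACNCCAC and the CCAAT box, on either strand (ATTGG is CCAAT on the other strand). Hmgcs1 is at chr13:119690101-119690350 and Lss at chr10:76531355-76531604.
Hmgcs1: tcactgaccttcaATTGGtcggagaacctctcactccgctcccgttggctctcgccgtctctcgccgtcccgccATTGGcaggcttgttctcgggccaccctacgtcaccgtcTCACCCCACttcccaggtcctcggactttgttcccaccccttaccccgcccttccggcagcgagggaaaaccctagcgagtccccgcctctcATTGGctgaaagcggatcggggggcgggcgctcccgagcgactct
Lss: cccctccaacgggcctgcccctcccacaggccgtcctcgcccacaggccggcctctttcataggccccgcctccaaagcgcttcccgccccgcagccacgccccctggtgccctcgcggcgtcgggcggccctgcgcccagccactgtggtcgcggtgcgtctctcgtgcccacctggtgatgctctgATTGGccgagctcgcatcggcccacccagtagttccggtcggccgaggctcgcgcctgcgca
Of the 8 genes, 6 had a promoter in the table (Srebf2, Hmgcs1, Idi1, Lss, Cyp51 and Msmo1). The letters TCACNCCAC were found in 1 of the 6, Hmgcs1, as TCACCCCAC at 137 to 129 bases before the start, and in 1.04% of 27025 promoters. A CCAAT box was found in 6 of 6, with 3 in Hmgcs1, 3 in Msmo1, 2 in Idi1 and 1 in each of the others, and in 34.5% of all promoters. The Sp1 box, searched as GGGCGG, was also in 6 of 6 and in 32.9% of all. In these 6 promoters no match overlapped another, and a match describes the sequence and not binding. The search took exact letters in 250 bases, so a promoter without a match is not shown to lack a site. Srebf2, Idi1, Cyp51 and Msmo1, which fell in KPC muscle, had no match to TCACNCCAC, as was so for Lss, which rose. Nothing about direction is read from the matches.

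The other enzymes of the chain that were called in KPC muscle were lower. Of 12 further genes between acetyl-CoA and cholesterol, 0 were called higher and 7 lower in KPC against no tumor, where 26.7% of all genes were called higher and 29.0% lower, with a median log2 FC of -0.85 beside -0.03 over all genes. The largest fall among the 12 was that of Dhcr7. This enzyme, which makes cholesterol from 7-dehydrocholesterol, ranged over 7.79 to 9.80 CPM in no tumor and 0.400 to 2.88 in KPC (log2 FC -2.72, SE 0.51, FDR = 0.000581). Acat2, a thiolase for acetoacetyl-CoA, and Tm7sf2, a sterol reductase, followed with -1.57 (SE 0.37) and -1.30 (SE 0.16). Mvk, Fdps, Nsdhl and Ebp also fell. Lbr, the most abundant of the 12, had a log2 FC of -0.18 (SE 0.14) and was not called. Against KPC IL6KO, 6 of the 12 were called lower in KPC and 0 higher, beside 27.3% and 26.4% of all genes. In KPC IL6KO against no tumor 0 of the 12 were called by edgeR's quasi-likelihood test, and 1 had an unadjusted p under 0.05, Acat2 (-1.20, SE 0.37).

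**Figure D2:**
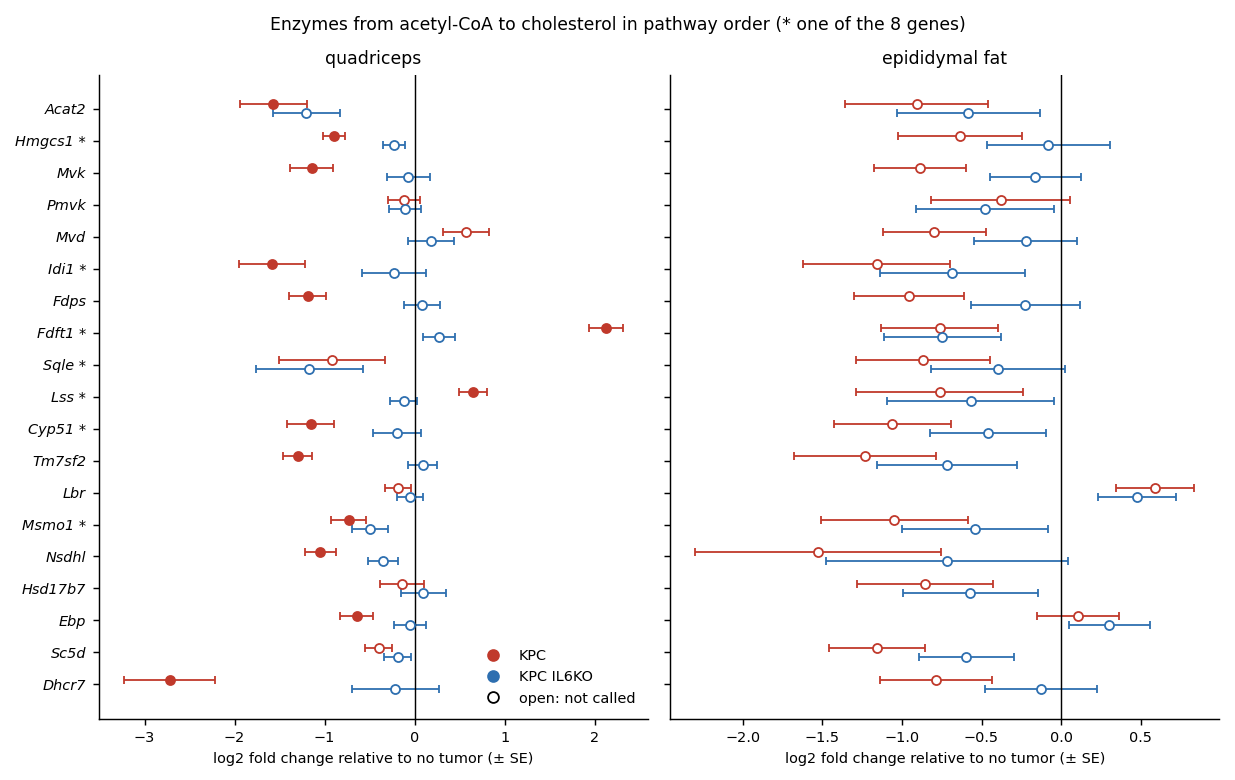
Log2 FC relative to no tumor with SE for the 7 enzymes among the 8 genes and the 12 further enzymes in pathway order, in quadriceps (left) and epididymal fat (right), with KPC in red and KPC IL6KO in blue, filled where called and open where not, and an asterisk for the 7. In quadriceps Fdft1 (2.12) and Lss (0.65) are the filled points right of 0, and in fat no point is filled.

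Among 6 genes that control the SREBP proteins, 1 rose and 2 fell in KPC muscle, which is near the 26.7% and 29.0% of all genes, so the counts show nothing about the list. Mbtps2, the Golgi protease that makes the second cut, had a log2 FC of 1.16 (SE 0.19). Srebf1, the related factor of fatty acid synthesis and the most abundant of the list, was at 81.2, 121 and 115 CPM in no tumor and 43.2, 42.1, 18.2 and 31.3 in KPC (log2 FC -1.65, SE 0.29), and Insig2 had one of -0.69 (SE 0.12). Insig1 was not called against no tumor, at 15.9 to 28.7 CPM in KPC, 11.0 to 19.8 in no tumor and 9.93 to 12.1 in KPC IL6KO. Against KPC IL6KO, 2 of the 6 were called higher in KPC and 2 lower, beside 26.4% and 27.3% of all genes.

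Of 6 measured genes of sterol uptake and release, 3 rose in KPC muscle and 0 fell, beside 26.7% higher and 29.0% lower over all genes. Npc1, which exports cholesterol from lysosomes, was at 81.9, 61.9 and 91.5 CPM in no tumor, 826, 535, 592 and 724 in KPC, and 79.3 to 148 in KPC IL6KO. Its 8.54-fold rise (log2 FC 3.09, SE 0.25, FDR = 2.3e-06) exceeded that of any of the 8 genes, and no library overlapped between KPC and the other groups. Mylip, a ubiquitin ligase induced by liver X receptors, rose by a log2 FC of 1.38 (SE 0.24) and Scarb1, an HDL receptor, by 0.61 (SE 0.22). Scarb1 was at 33.6 ± 7.05 CPM (SD, n = 4) in KPC and 38.2 ± 8.14 (n = 4) in KPC IL6KO against 21.9 ± 5.32 (n = 3) in no tumor, and in KPC IL6KO its log2 FC of 0.80 (SE 0.22, FDR = 0.34) was not called. Of 8 measured genes of efflux and storage, 3 rose and 0 fell, against the same shares of all genes, namely Cyp27a1, a sterol 27-hydroxylase and the most abundant of them, at 1.35 (SE 0.17), Nr1h2, a liver X receptor, at 1.32 (SE 0.14), and Abca1, a cholesterol exporter, at 0.70 (SE 0.25).

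Of 8 genes of the isoprenoid branches, 2 rose and 2 fell in KPC muscle, close to the 26.7% and 29.0% of all genes, so nothing is read from the counts. Fntb, the farnesyltransferase beta subunit, and Ggps1, which makes geranylgeranyl diphosphate, rose by log2 FC of 1.10 (SE 0.11) and 0.88 (SE 0.14). Pdss1 and Pdss2, which build the ubiquinone tail, fell by 1.20 and 1.18 on the log2 scale (SE 0.18 and 0.16), and Coq2, the most abundant, had -0.45 (SE 0.09) and was not called. Of 8 genes of fatty acid synthesis and desaturation, 1 rose and 5 fell, against 26.7% and 29.0% of all genes. Elovl6, Scd1, Fasn and Scd2 had log2 FC of -3.69, -3.63, -2.79 and -1.83 (SE 0.50, 0.87, 0.67 and 0.23), and Acacb, a muscle acetyl-CoA carboxylase tied to control of fatty acid oxidation, rose by 1.88 (SE 0.17). In KPC IL6KO against no tumor 0 of these 8 were called and 6 had an unadjusted p under 0.05 (887 of all 12831 genes), among them Fasn, at 134, 25.6, 22.7 and 45.1 CPM against 315, 462 and 189.

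**Figure D3:**
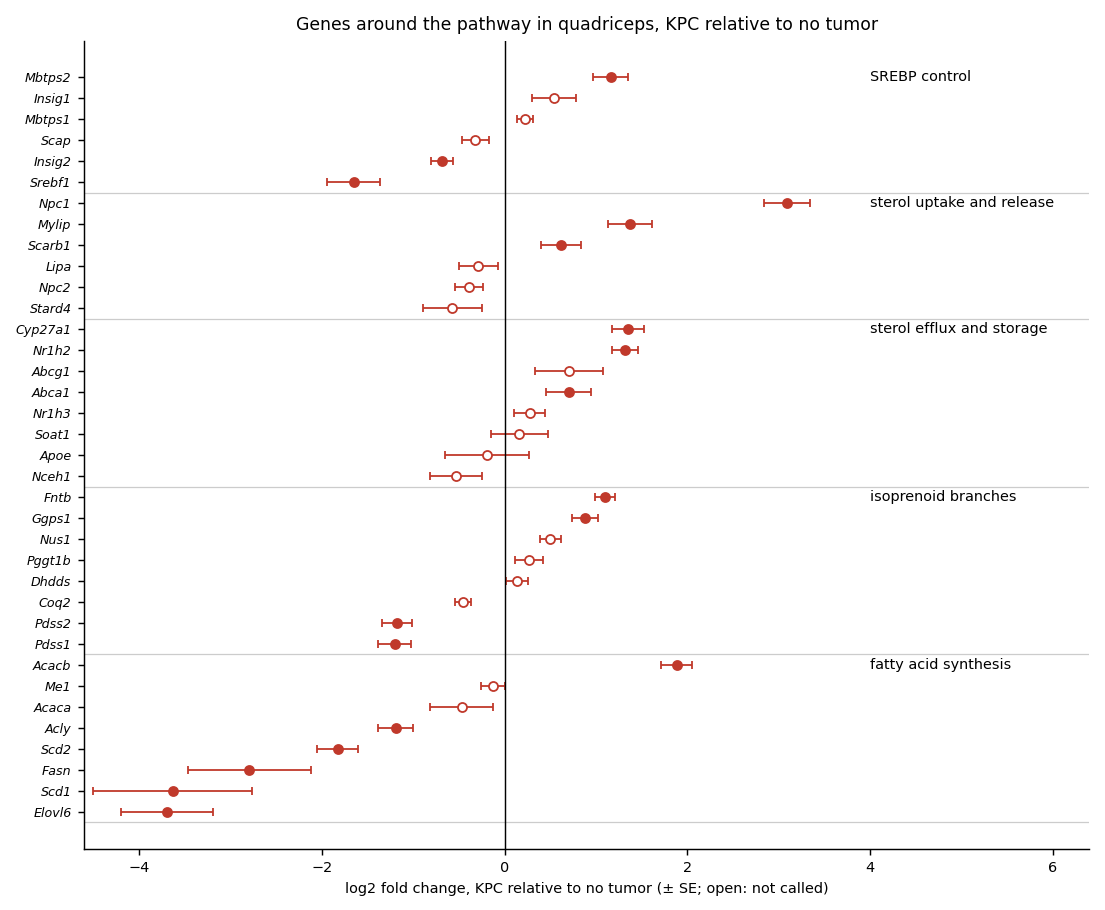
Log2 FC of KPC relative to no tumor in quadriceps, with SE, for genes of SREBP control, sterol uptake and release, sterol efflux and storage, isoprenoid branches and fatty acid synthesis, ordered within each list, filled where called and open where not. Npc1 (3.09) lies farthest right and Elovl6 (-3.69) farthest left.

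Markers of other cells also moved in muscle. All 3 fibroblast markers were measured and fell in KPC, with a sum of 302 to 341 CPM in no tumor, 16.1 to 46.4 in KPC and 137 to 241 in KPC IL6KO. The 5 adipocyte markers summed to 293 to 1330, 121 to 659 and 137 to 308 CPM, and 1 of 5 was called, lower in KPC. The 3 of 5 neutrophil markers in the table summed to 0.0512 to 0.294, 3.93 to 20.6 and 1.14 to 2.54 CPM, and all 3 rose in KPC. The 5 muscle fiber markers summed to 142838 to 181562, 107936 to 128803 and 164694 to 181724 CPM, and 2 of 5 fell in KPC. The 4 macrophage markers summed to 34.4 to 45.2, 16.2 to 92.3 and 29.3 to 49.4 CPM, and 1 rose and 2 fell in KPC. The one that rose was Cd68, at 2.90 to 3.69 CPM in no tumor and 4.16 to 79.5 in KPC (log2 FC 3.22, SE 0.83). Alb, the 1 of 3 hepatocyte markers in the table, was at 97.3 CPM in KPC replicate 4, the library that decides the call of Sqle, and at 0.0351 to 1.16 in the other quadriceps libraries. The part of these cells in the changes of the 8 genes was not tested.

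In epididymal fat the 8 genes were all lower in KPC than in no tumor on average, as were 10078 of all 16962 genes. Of the 8, 0 were called by edgeR's quasi-likelihood test, and the spread between mice was large. Against no tumor the log2 FC in KPC ran from -1.16 for Idi1 to -0.22 for Srebf2, with a median of -0.81 beside -0.10 over all genes. At an unadjusted p under 0.05 there were 3 of the 8 (Idi1, Cyp51 and Msmo1) and 2061 of all 16962 genes. None of all genes was called either (0%) by that test. The likelihood ratio test of edgeR called 413 of them and 0 of the 8, and DESeq2 called 585 and 0 of the 8. The CPM of 2 of the 8 genes, Fdft1 and Cyp51, did not overlap between the groups, against 10.9% of all genes.

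**Figure D4:**
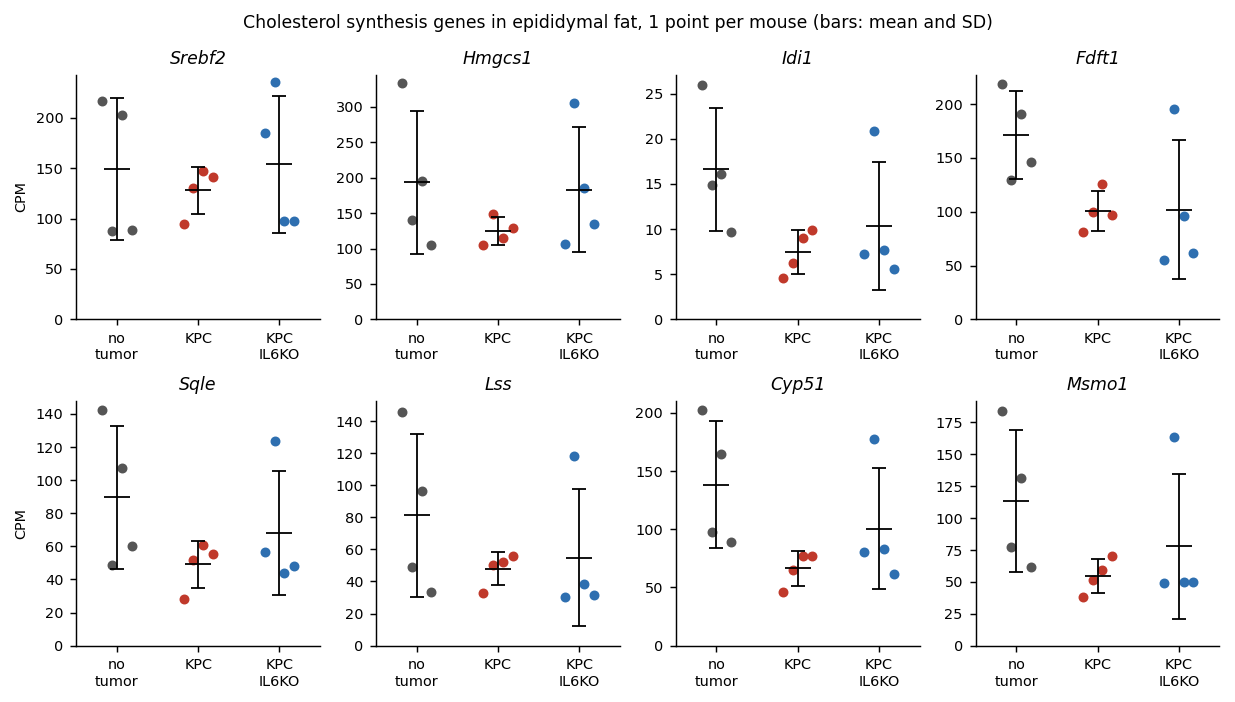
CPM of the 8 genes in each epididymal fat library, 1 panel per gene with its own axis from 0, with no tumor in grey, KPC in red and KPC IL6KO in blue, and bars for the group mean and SD. No tumor and KPC IL6KO spread widely, with Msmo1 at 61.3 to 184 and 48.8 to 163 CPM, while the KPC libraries stayed within 38.3 to 70.1.

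Cyp51 was at 202, 97.6, 164 and 89.0 CPM in no tumor fat, 45.8, 64.7, 77.4 and 77.4 in KPC, and 80.3, 177, 82.8 and 61.9 in KPC IL6KO. All KPC libraries lay below all no tumor libraries, with a log2 FC of -1.06 (SE 0.37, FDR = 0.306). Msmo1 was at 184, 77.3, 132 and 61.3 CPM in no tumor, 38.3, 51.9, 59.4 and 70.1 in KPC, and 48.8, 163, 49.6 and 49.9 in KPC IL6KO, and no tumor and KPC overlapped (log2 FC -1.05, SE 0.46, FDR = 0.401). Idi1 ranged from 9.69 to 26 CPM in no tumor and from 4.61 to 9.85 in KPC.

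Fdft1 in fat was at 218, 129, 191 and 147 CPM in no tumor, 81.0, 99.5, 126 and 97.3 in KPC, and 54.7, 196, 95.7 and 61.8 in KPC IL6KO. Its direction in KPC was thus the opposite of that in muscle, at a log2 FC of -0.76 (SE 0.37, FDR = 0.443). Hmgcs1 was at 334, 140, 195 and 105 CPM in no tumor, 105, 149, 115 and 130 in KPC, and 106, 306, 186 and 135 in KPC IL6KO, and all groups overlapped. Sqle and Lss had log2 FC of -0.87 (SE 0.42) and -0.76 (SE 0.53), and Srebf2, with 87.7 to 217 CPM in no tumor and 94.3 to 147 in KPC, one of -0.22 (SE 0.38).

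A single library set the highest value of most genes. No tumor 5 was the highest of all 12 fat libraries for 7 of the 8 genes, and KPC IL6KO 6 for Srebf2, both among the 7 libraries high in Gpx5. Without no tumor 5 the log2 FC of KPC was 0.017 for Srebf2, -0.24 for Hmgcs1 and -0.32 for Lss, and that of Cyp51 was -0.82. A comparison among only the 7 libraries high in Gpx5 was added after the data were seen. It set 2 no tumor libraries against 4 KPC libraries. There 2 of the 8 genes were called, Cyp51 (log2 FC -1.37, FDR = 0.0448) and Msmo1 (-1.42, FDR = 0.0459). The share of all genes called in this subset was not counted, so nothing is read from these calls. All 4 KPC libraries were high in Gpx5, so the 5 libraries low in it hold no KPC mouse.

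**Figure D5:**
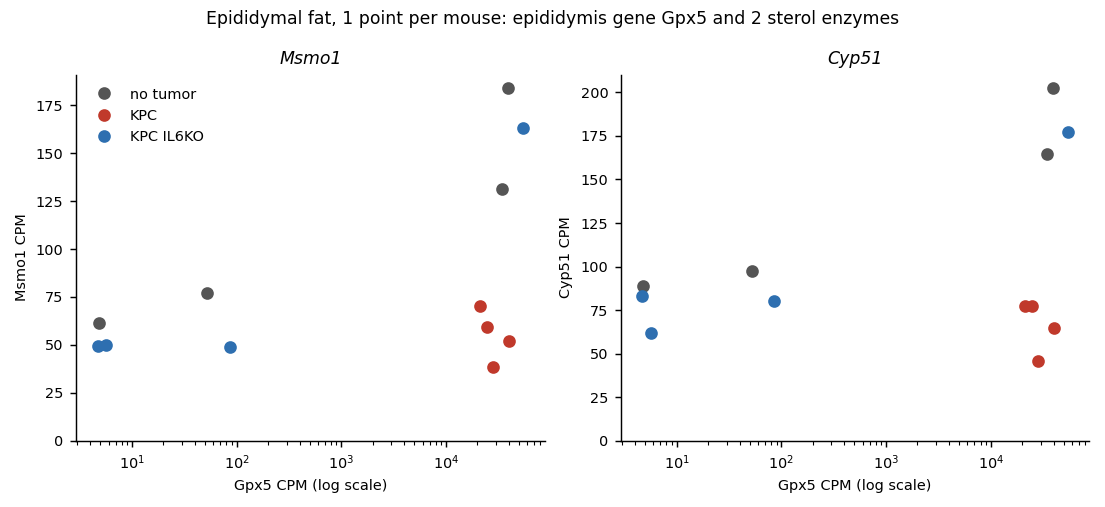
CPM of Msmo1 (left) and Cyp51 (right) against CPM of the epididymis gene Gpx5 on a log axis in the 12 epididymal fat libraries, with no tumor in grey, KPC in red and KPC IL6KO in blue. Among the 7 libraries high in Gpx5, the 4 KPC libraries had Msmo1 at 38.3 to 70.1 CPM and the other 3 at 132 to 184.

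KPC IL6KO fat gave no calls for these genes against either group. Against no tumor, 0 of the 8 genes and 0% of all genes were called by edgeR's quasi-likelihood test, and 0 of the 8 had an unadjusted p under 0.05 (1584 of all genes). The likelihood ratio test of edgeR called 0 of the 8 and 209 of all, and DESeq2 0 of the 8 and 286 of all. The median log2 FC was -0.50, with Fdft1 at -0.75 (SE 0.37) and Srebf2 at 0.05 (SE 0.38), and 0 of the 8 were free of overlap, against 2.01% of all genes. By the quasi-likelihood test KPC against KPC IL6KO likewise gave 0 of the 8 and 0% of all genes, with 0 of the 8 and 1062 of all at an unadjusted p under 0.05. In this comparison the likelihood ratio test called 0 of the 8 and 66 of all, and DESeq2 0 of the 8 and 125 of all. The median was -0.47, from -0.60 for Cyp51 to -0.01 for Fdft1, and 0 of the 8 did not overlap, beside 4.33% of all genes. Without KPC IL6KO 6 the log2 FC of KPC against KPC IL6KO was 0.51 for Fdft1 and 0.51 for Lss.

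The rest of the pathway in fat was mostly lower in KPC, and 0 genes were called. Of the 12 further enzymes 10 were lower in KPC than in no tumor, beside 10078 of all 16962 genes. Their median log2 FC was -0.87, beside -0.10 over all genes. At an unadjusted p under 0.05 there were 7 of the 12 and 2061 of all genes. Sc5d, a late desaturase, was at 36.2 ± 4.79 CPM (SD, n = 4) in KPC and 80.7 ± 26.2 (n = 4) in no tumor. Its groups did not overlap, as was so for 10.9% of all genes (log2 FC -1.16, SE 0.30, FDR = 0.228). Acat2, the most abundant, had -0.91 (SE 0.45). Lbr was on the other side, at 0.59 (SE 0.25). Insig1 had -0.99 (SE 0.52), Srebf1 -0.40 (SE 0.32), Npc2 -0.27 (SE 0.56), Apoe 0.29 (SE 0.39), Nus1 0.36 (SE 0.24) and Scd1 -1.46 (SE 1.14). The 4 macrophage markers summed to 95.0 to 311 CPM in no tumor, 334 to 630 in KPC and 166 to 889 in KPC IL6KO, the adipocyte markers to 916 to 17184, 1561 to 8243 and 2551 to 10157, and the epididymis markers to 12079 to 64002, 37738 to 60150 and 731 to 75395. All 5 adipocyte markers were lower in KPC than in no tumor, with a median log2 FC of -2.02, and 3 had an unadjusted p under 0.05. The 4 of 5 neutrophil markers in the table were each higher in KPC without overlap (median 5.06), against 10.9% of all genes without overlap. Their sums were 0.232 to 3.74, 12.2 to 41.1 and 1.27 to 26.7 CPM. The 5 muscle fiber markers were each lower in KPC (median -5.41), with sums of 3.05 to 256, 0.672 to 3.92 and 92.1 to 2119 CPM. These 5 did not overlap between KPC and KPC IL6KO, against 4.33% of all genes. None of these markers was called. Their part in the differences between groups was not tested.

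The responses of the 2 tissues were compared over the 12599 genes that both tables list, in a joint fit, as the difference between the log2 FC in quadriceps and that in fat, called at an FDR of at most 0.05. For KPC against no tumor, 1 of the 8 genes differed, Fdft1, by 2.76 (SE 0.45, FDR = 0.000104), beside 38.6% of all genes. Lss came next at 1.28 (SE 0.58, FDR = 0.0886), and it was called without no tumor 8 of fat (1.52, FDR = 0.0348) and without KPC IL6KO 6 of fat (1.28, FDR = 0.0255). Srebf2 had -0.84 (SE 0.43, FDR = 0.129), and the other 5 lay between -0.54 and 0.18. For KPC IL6KO 0 of the 8 and 0% of all genes differed by edgeR's quasi-likelihood test. At an unadjusted p under 0.05 there were 1 of the 8 (Fdft1, 1.05, SE 0.43, FDR = 0.563) and 1003 of all. The likelihood ratio test of edgeR called 0 of the 8 and 39 of all, and DESeq2 0 of the 8 and 46 of all. Without KPC IL6KO 6 of fat the difference of Fdft1 was called, at 1.55 (FDR = 0.0326). Tissue and library preparation cannot be told apart in this comparison, and the fit treats the 23 libraries as independent.

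Per kilobase by the same exon lengths in no tumor fat, Hmgcs1 was at 42.1 ± 21.9 CPM per kb (SD, n = 4) and Fdft1 at 40.5 ± 9.64. Cyp51 at 31.3 ± 12.3, Srebf2 at 20.7 ± 9.79 and Msmo1 at 18.5 ± 9.06 followed. Sqle at 16.1 ± 7.80, Lss at 7.54 ± 4.71 and Idi1 at 4.75 ± 1.94 were lowest. Every neighbour in this order overlapped the next. The pairwise correlations of the log2 CPM of the 8 genes over the 12 fat libraries, which share depth and tissue makeup, ranged from 0.45 to 0.96 in 28 of 28 positive pairs. Over the 11 quadriceps libraries they ranged from -0.91 to 0.99, with 11 of 28 negative. These values carry the differences between groups. Within groups they ran from -0.65 to 0.95 in quadriceps, and some signs turned, as for Srebf2 and Fdft1 (-0.83 over all and 0.42 within groups) and Hmgcs1 and Fdft1 (-0.90 and 0.26). In fat they ran from 0.60 to 0.98 within groups. Among the 5 genes whose profile was most like the mean standardized profile of the 8 were Prepl, Wbp1, Pex11g and Ppp6r1 in fat (Pearson r 0.97 to 0.96 over 12 libraries, among 13908 genes), and the 5 in quadriceps were Pmp22, Cnot6, Smo, Cab39l and Dcbld2 (0.95 to 0.93 over 11 libraries, among 10514 genes).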

How the data were processed

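The authors aligned paired reads with STAR to mm10 and assigned uniquely mapped reads to genes with featureCounts 1.5.1 of Subread, and the submitters' processing notes also name edgeR 3.12.1. They deposited 1 table of raw counts per tissue, without normalization and without genes of few counts. The kit is named TruSeq RNA Access in the labels and otherwise in the study's methods, and the strand setting of the counting is not given in the sources used here. The authors dropped 1 no tumor muscle library, which is not analysed here.

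Groups and replicate numbers came from the sample titles. The 8 genes and all other gene lists were chosen with earlier results of these data known. In R 4.3.3, edgeR 4.0.16 (limma 3.58.1) fitted the 3 groups of a tissue together after TMM by the quasi-likelihood method, without a replicate term, and filterByExpr removed 0 genes. Log2 CPM used a prior count of 2. The difference between tissues was fitted over the 23 libraries. Named outside the 8 genes were, per list, the most abundant gene by mean CPM plus up to 4 called genes in each direction with the largest change, and the 5 genes most alike where log2 CPM averaged 1 or more. Other genes named were chosen after their values were seen. Some genes are not reported here and were left out of the lists and their counts, after the values were seen and not because of them. Alternatives were DESeq2 1.42.0, the likelihood ratio test, edgeR's newer fit, other filters and normalization, a replicate block, an epididymis covariate, leaving out each library and, added after the data were seen, subsets by Gpx5. Deviations of same-numbered libraries correlated above 0.1 in 2 of 10 pairs in quadriceps (r -0.15 to 0.26) and 7 of 12 in fat (-0.54 to 0.65), not in every pair, and no label ties the numbers to a litter or day, so they were not taken as pairs. Libraries of a group differed by more than sampling noise (chi-square per degree of freedom at least 28.9 and 84.3). Gene positions are from GENCODE on GRCm38 and promoters from RefSeq on GRCm38.p6. Scripts were tested on simulated data, and figures were drawn with matplotlib 3.10.9. Counting limits cover counting error only. Nothing in the labels says more of the mice than 1 library each, so p-values measure the spread between these libraries.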

Additional observations from a re-analysis of the deposited data

Results flagged for a closer look

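By Dixon's gap test, chance sets 1 library apart in about 1 in 20 independent groups. Genes measured in the same libraries vary together, so nothing is read from the number flagged here. Of 40 groups of 4 libraries (8 genes, 5 groups), 5 had 1 library apart from the rest. Of these, 4 were the library KPC IL6KO 6 of fat, with Idi1 at 20.9 CPM (others 5.62 to 7.70), Lss at 118 (30.6 to 38.6), Msmo1 at 163 (48.8 to 49.9) and Sqle at 124 (43.7 to 56.6). This library was also the 1 of its group high in Gpx5, and its 3 hepatocyte markers summed to 323 CPM against 2.32 to 16.9 in the rest of its group. The remaining one was Lss in quadriceps KPC IL6KO 4, at 5.38 CPM against 4.53 to 4.65. Fdft1 responded differently in the 2 tissues by the interaction test, as did 38.6% of all genes. Its quadriceps minus fat difference was 2.76 in log2 FC for KPC against no tumor. The gene was chosen on group differences in these same libraries, so the value is a description.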

How the results depend on the processing

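In quadriceps the counts of the 8 genes called (7, 0 and 6) were the same under every alternative that kept all libraries. Leaving out 1 library gave 7 to 8, 0 and 5 to 6. In fat 0 were called in each comparison under every alternative but 1. Among only libraries high in Gpx5, 2 (Cyp51 and Msmo1) were called for KPC against no tumor. The share of all genes called in that subset was not counted. The difference between tissues held for 1 gene for KPC (1 to 2 without 1 library) and 0 for KPC IL6KO (0 to 1). With a replicate block the counts were 7, 0 and 6 in quadriceps and 0 in fat, so the block moved no count.

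Some log2 FC that were not called changed sign, and the cause was not tested. Fdft1 in fat, KPC against KPC IL6KO (-0.01), was 0.026 with DESeq2, 0.035 with at least 10 counts in every library, 0.026 with RLE, 0.024 with only the groups compared and 0.089 with the replicate block. Hmgcs1 in fat, KPC IL6KO against no tumor (-0.08), was 0.34 with the epididymis covariate and 0.20 in libraries low in Gpx5. Leaving out 1 library, the ranges were -0.41 to 0.013 (Idi1, KPC IL6KO against no tumor) and -0.39 to 0.54 (Sqle, KPC against KPC IL6KO) in quadriceps. In fat they were -0.40 to 0.017 for Srebf2 in KPC, and in KPC IL6KO -0.23 to 0.28 for Srebf2 and -0.44 to 0.32 for Hmgcs1, all against no tumor. For KPC against KPC IL6KO in fat they were -0.43 to 0.012 (Srebf2), -0.68 to 0.12 (Idi1), -0.22 to 0.51 (Fdft1), -0.39 to 0.51 (Lss) and -0.67 to 0.15 (Msmo1). The difference between tissues ranged over -0.83 to 0.054 (Sqle) and -0.11 to 0.37 (Msmo1) for KPC, and -0.48 to 0.22 (Hmgcs1) and -0.21 to 0.71 (Msmo1) for KPC IL6KO. Of the other log2 FC, 448 in quadriceps, 495 in fat and 464 between tissues kept direction and call, and 7 changed their call. Sqle and Idi1 in muscle were near 1 CPM, where depth limits precision. The coefficient of variation between libraries, 1 value fitted over all genes of a tissue, was 63.5% in fat against 22.7% in muscle.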
